A study of Mus musculus with 7 samples.

Results

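The contractile genes of smooth muscle were examined in prostates of *Nkx3.1*−/− mice, as 10 genes chosen by name: *Acta2*, *Actg2*, *Myh11*, *Cnn1*, *Cald1*, *Tagln*, *Smtn*, *Des*, *Lmod1* and *Synpo2*. All 10 were found among the 18938 genes of the array table, each with 1 probe set. The mice, of a recombinant inbred B6/129 strain and 16 weeks old at collection, had received plain water (vehicle, 3 arrays, replicates 1, 2 and 4) or water with 5 mM N-acetylcysteine (NAC, an antioxidant and glutathione precursor, 4 arrays, replicates 1 to 4) for 13 weeks. Each array held the RNA of 1 mouse, and both groups lack *Nkx3.1*, a homeobox gene of the prostate epithelium, so the comparison is of treatment within the mutant. Cages held 1 treatment each, with littermates assigned to either, so cage and treatment cannot be told apart. Per the study's methods, mice of both groups received BrdU, a label of DNA synthesis, before collection. The extraction protocol names the anterior prostate, while a tissue label names the whole gland. The question of the comparison was whether the RNA of the muscular stroma differed between treated and untreated glands.

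Prostate glands are wrapped in smooth muscle, which contracts to expel secretion. Its filaments of actin (*Acta2*, *Actg2*) slide along filaments of smooth muscle myosin (*Myh11*), while calponin (*Cnn1*), caldesmon (*Cald1*), transgelin (*Tagln*) and smoothelin (*Smtn*) sit on actin, desmin (*Des*) forms intermediate filaments, and leiomodin (*Lmod1*) and synaptopodin 2 (*Synpo2*) act on actin filament assembly and anchoring. Contraction starts when calcium activates myosin light chain kinase, and ends when myosin phosphatase removes the phosphate. Many of these genes are switched on by serum response factor (*Srf*) with its coactivators myocardin (*Myocd*) and the myocardin-related factors (*Mrtfa*, *Mrtfb*), through the CArG box, a stretch of A and T flanked by a pair of C and a pair of G.

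Promoter sequence bears on these genes because their shared regulation runs through that box. Windows from 250 bases before to 50 bases after the annotated start (RefSeq, GRCm38.p6) were at hand for 7 of the 10 contractile genes and were searched on the gene's strand, which for a motif with this symmetry equals a search of both strands. *Tagln*, *Myh11* and *Actg2* had no window and were not searched. None of the 7 searched genes held a perfect CArG box in its window, and *Acta2* held a pair of boxes with 1 G or C inside the A and T stretch. Of the 8 windows of these 7 genes, 12.5% held a box with at most 1 G or C in the stretch. Of 32851 windows of all genes, 1.63% held a perfect box and 9.98% a box with at most 1 G or C in the stretch, and a match is a description of letters, not of binding. Shown are *Acta2*, as the contractile gene with boxes, and, from the wider list of partner genes described further on, *Srf* itself, the myosin light chain gene *Myl9* and the focal adhesion gene *Vcl*, which hold perfect boxes. A perfect box was held by 5 of the 37 partner genes with a window, in 9.62% of their windows. Each stretch shown is written 5′ to 3′ on the strand of the gene, with perfect boxes, and boxes with 1 G or C in the A and T stretch, in capitals.
The stretches lie at chr19:34255374-34255493 on the minus strand (*Acta2*), chr17:46556163-46556282 on the minus strand (*Srf*), chr2:156775284-156775403 on the plus strand (*Myl9*) and chr14:20929148-20929237 on the plus strand (*Vcl*).
Acta2: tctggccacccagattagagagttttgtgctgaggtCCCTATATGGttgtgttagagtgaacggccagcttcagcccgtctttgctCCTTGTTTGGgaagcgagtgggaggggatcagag
Srf: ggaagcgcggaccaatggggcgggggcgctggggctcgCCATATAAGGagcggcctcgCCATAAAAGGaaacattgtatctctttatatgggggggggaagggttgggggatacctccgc
Myl9: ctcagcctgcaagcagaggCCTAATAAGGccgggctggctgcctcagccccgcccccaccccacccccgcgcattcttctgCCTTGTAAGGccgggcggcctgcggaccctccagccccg
Vcl: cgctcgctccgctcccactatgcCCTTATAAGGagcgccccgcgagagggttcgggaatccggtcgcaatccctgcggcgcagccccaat

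Values are log2 expression from Affymetrix Mouse Gene 1.0 ST arrays, normalized together by the authors, so that a difference of 1 is a doubling. The array medians lay between 7.12 and 7.16, and at least 3 arrays held the same value for 7568 genes, which limits what small differences can show. Groups were compared with limma across all 18938 genes, with Benjamini-Hochberg adjustment, and the 7 arrays limit the precision. Luminal epithelial *Krt18* was at 12.56 to 12.60 and stromal *Dcn*, the matrix protein decorin, at 12.32 to 12.62 on all arrays, so RNA of both compartments was present. NAC replicate 3 stood apart in markers of fat and skeletal muscle, whose values stand beside the results below. In a whole tissue, fewer muscle cells and less RNA per cell cannot be told apart.

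None of the 10 contractile genes passed the test between NAC and vehicle, and their differences were small. Log2 fold changes (NAC minus vehicle) ran from -0.15 for *Cald1* to 0.019 for *Smtn*, with a median of -0.040, against a median of -0.00029 over all genes. All 10 are among the 11363 genes left when the dimmest 40% were removed, whose median was -0.019. The smallest adjusted p of limma among the 10 genes was 0.827, and 0% of all genes passed. At an unadjusted p under 0.05 there was 1 of the 10, *Cald1*, lower with NAC, where 2.53% of all genes were lower and 1.89% higher at that level. In a fit of the 11363 brighter genes, 414 were lower and 140 higher at that level. In 0 of the 10 genes were the groups free of overlap, against 3.47% of all genes. The log2 fold change was below 0 in 9 of 10 genes, where it was in 50.2% of all genes. That share was not counted among the brighter genes. The genes varied among arrays as much as others did, with a median residual SD of 0.082 against 0.084 over all genes.

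**Figure D1:**
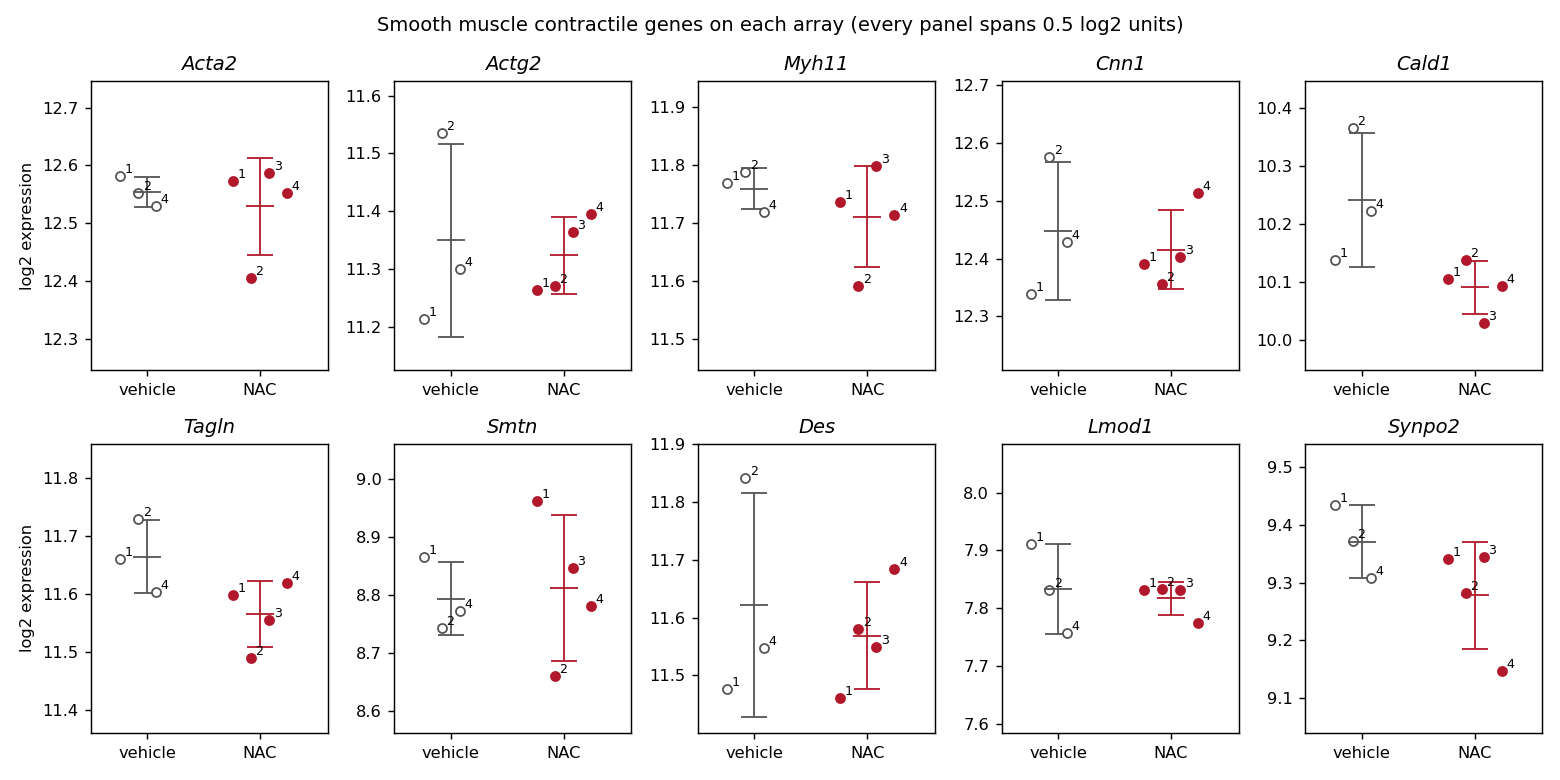
Log2 expression (y axis, every panel spanning 0.5 units and not starting at 0) of the 10 contractile genes on vehicle (open, n = 3) and NAC arrays (filled, n = 4), with the replicate number beside each point and mean ± SD as bars. The groups overlap or touch in all 10 panels, and vehicle replicate 2 is the highest point in 5 of them.

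The actins and the myosin heavy chain, which make up the sliding filaments, were measured at nearly the same level in both groups. *Acta2*, the alpha actin used to stain smooth muscle, was at 12.58, 12.55 and 12.53 on vehicle replicates 1, 2 and 4 and at 12.57, 12.41, 12.59 and 12.55 on NAC replicates 1 to 4. NAC replicate 2 was the low array, and the other 6 lay between 12.53 and 12.59. Its log2 fold change was -0.025 (standard error 0.050, limma adjusted p = 0.917), and the 95% interval from -0.15 to 0.095 corresponds to -9.57% to 6.80%. *Myh11* was at 11.77, 11.79 and 11.72 with vehicle and at 11.74, 11.59, 11.80 and 11.71 with NAC. Again NAC replicate 2 was below the other 6 arrays, while NAC replicate 3 was the highest of all. The log2 fold change of *Myh11* was -0.049 (standard error 0.053, limma adjusted p = 0.857), with an interval from -0.17 to 0.077. *Actg2*, the gamma actin of visceral muscle, was at 11.21, 11.54 and 11.30 with vehicle and at 11.26, 11.27, 11.36 and 11.40 with NAC. Here vehicle replicate 2 was the highest array and vehicle replicate 1 the lowest, so that the NAC arrays lay wholly inside the vehicle range. The difference on the log2 scale was -0.026 (standard error 0.081, limma adjusted p = 0.951). The coding sequences of the actin genes are nearly identical, so probes of *Acta2* and *Actg2* may also catch RNA of other actins, and their values are uncertain to that extent.

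Among the proteins that sit on the actin filament, *Cald1* and *Tagln* had the lowest fold changes of the 10 genes and *Smtn* the highest. *Cald1*, caldesmon, which holds back myosin on actin, was at 10.14, 10.37 and 10.22 with vehicle and at 10.10, 10.14, 10.03 and 10.09 with NAC. Of the NAC arrays, 3 lay below all vehicle arrays, and NAC replicate 2 held the same value as vehicle replicate 1, the lowest vehicle array. The means were 10.24 ± 0.12 (SD, n = 3) and 10.09 ± 0.046 (SD, n = 4) and the difference between them -0.15 (standard error 0.059, limma adjusted p = 0.827) with an interval from -0.29 to -0.011, that is, -18.3% to -0.790%. *Tagln*, transgelin or SM22, was at 11.66, 11.73 and 11.60 with vehicle and at 11.60, 11.49, 11.56 and 11.62 with NAC. Only NAC replicate 4 was above the lowest vehicle array, and the log2 fold change was -0.099 (standard error 0.046, limma adjusted p = 0.827), with an interval from -0.21 to 0.011. *Cnn1*, calponin, an inhibitor of the myosin motor, was at 12.34, 12.58 and 12.43 with vehicle and at 12.39, 12.36, 12.40 and 12.51 with NAC. The 4 NAC arrays fell between vehicle replicates 1 and 2, at a log2 difference of -0.032 (standard error 0.065, limma adjusted p = 0.918). *Smtn*, smoothelin, a protein of contractile smooth muscle cells, was at 8.86, 8.74 and 8.77 with vehicle and at 8.96, 8.66, 8.85 and 8.78 with NAC. Its NAC arrays included both the highest and the lowest value, and its log2 fold change of 0.019 (standard error 0.073, limma adjusted p = 0.966) was the 1 value above 0 in the list.

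Desmin and the genes of filament assembly and anchoring did not move together. *Des*, whose protein links the dense bodies of the muscle cell, was at 11.48, 11.84 and 11.55 with vehicle and at 11.46, 11.58, 11.55 and 11.68 with NAC. Vehicle replicate 2 was the highest array and NAC replicate 1 the lowest, and with a range of 0.38 over the arrays *Des* varied most of the 10 genes. Its log2 fold change was -0.053 (standard error 0.096, limma adjusted p = 0.908), and the interval from -0.28 to 0.17 is the widest of the list. *Synpo2*, an actin-bundling protein of the Z disc and dense bodies, was at 9.43, 9.37 and 9.31 with vehicle and at 9.34, 9.28, 9.34 and 9.15 with NAC. NAC replicate 4 was the lowest array, NAC replicates 1 and 3 lay inside the vehicle range, and the log2 fold change was -0.092 (standard error 0.059, limma adjusted p = 0.827). *Lmod1*, which starts new actin filaments in smooth muscle, was at 7.91, 7.83 and 7.76 with vehicle and at 7.83, 7.83, 7.83 and 7.77 with NAC. Of its 7 arrays, 3 hold exactly the same value, so that its interval from -0.12 to 0.087 around a log2 fold change of -0.016 (limma adjusted p = 0.943) rests on few distinct readings.

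Among the 7 arrays, vehicle replicate 2 and NAC replicate 2 lay farthest from the mean of the contractile genes. Averaged over the 10 genes, the deviation from the mean of the 7 arrays was 0.10 on vehicle replicate 2 and -0.073 on NAC replicate 2, and from -0.015 to 0.0050 on the other 5 arrays. Vehicle replicate 2 was the highest array for *Des*, *Cald1*, *Actg2*, *Cnn1* and *Tagln*, 5 of the 10 genes, where it was highest for 10.4% of all genes with a single highest array. NAC replicate 2 was the lowest array for *Smtn*, *Acta2*, *Myh11* and *Tagln*, 4 of the 10, against 16.3% of all genes with a single lowest array. Compared with the mean of vehicle replicates 1 and 4, vehicle replicate 2 was higher by 0.33 for *Des*, 0.28 for *Actg2*, 0.19 for *Cnn1* and 0.19 for *Cald1*, but *Acta2* (-0.0028), *Lmod1* (-0.0034) and *Smtn* (-0.075) were not above that mean. The values of NAC replicate 2 against the other NAC arrays were -0.20 for *Smtn*, -0.17 for *Acta2*, -0.16 for *Myh11* and -0.10 for *Tagln*, and 0.062 for *Cald1*. The genes that set vehicle replicate 2 apart were thus largely other genes than those that set NAC replicate 2 apart, with *Tagln* in both groups.

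**Figure D2:**
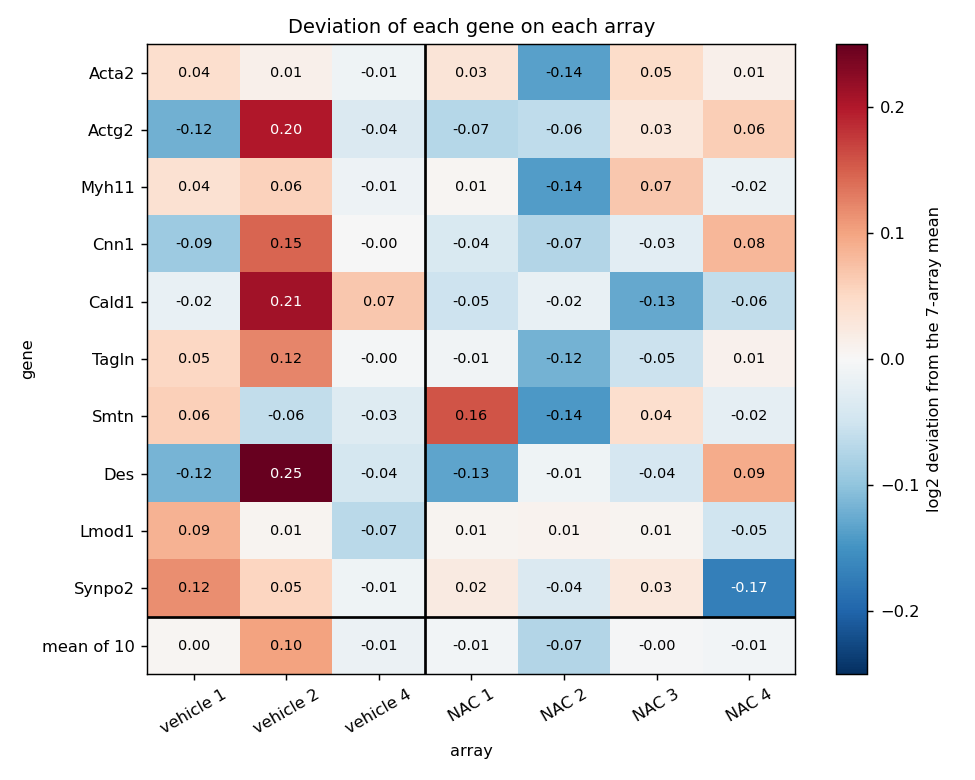
Log2 deviation of each contractile gene (rows) from its mean over the 7 arrays (columns, vehicle left and NAC right of the line), with the mean over the 10 genes in the last row and colours from -0.25 (blue) to 0.25 (red). The last row is 0.10 on vehicle 2 and -0.07 on NAC 2 and near 0 on the others.

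Without these arrays the fold changes moved to both sides of 0. Vehicle replicate 2 was the highest and NAC replicate 2 the lowest array for the mean of the contractile genes. Leaving them out must therefore raise the fold changes on average, and the move says nothing of its origin. Without vehicle replicate 2, 7 of the 10 genes had a fold change below 0 with a median of -0.022, against 51.6% of all genes, and *Des* (0.057), *Actg2* (0.067) and *Cnn1* (0.032) had values above 0. Without NAC replicate 2, 8 of 10 were below 0 with a median of -0.017, against 49.4% of all genes, and *Acta2* had 0.016 (standard error 0.030). Without both, 4 of 10 were below 0 with a median of 0.010, against 50.2% of all genes. The 4 genes were *Cald1* (-0.10, standard error 0.046), *Synpo2* (-0.093, standard error 0.084), *Tagln* (-0.041, standard error 0.039) and *Lmod1* (-0.022, standard error 0.059). *Cald1* had an unadjusted p of 0.045 without NAC replicate 2 in limma, 0.105 without vehicle replicate 2 and 0.079 without both, where 4.24%, 2.96% and 3.54% of all genes were lower at an unadjusted p under 0.05. In each of these fits 0 of the 10 genes passed after adjustment, and 0% of all genes did.

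**Figure D3:**
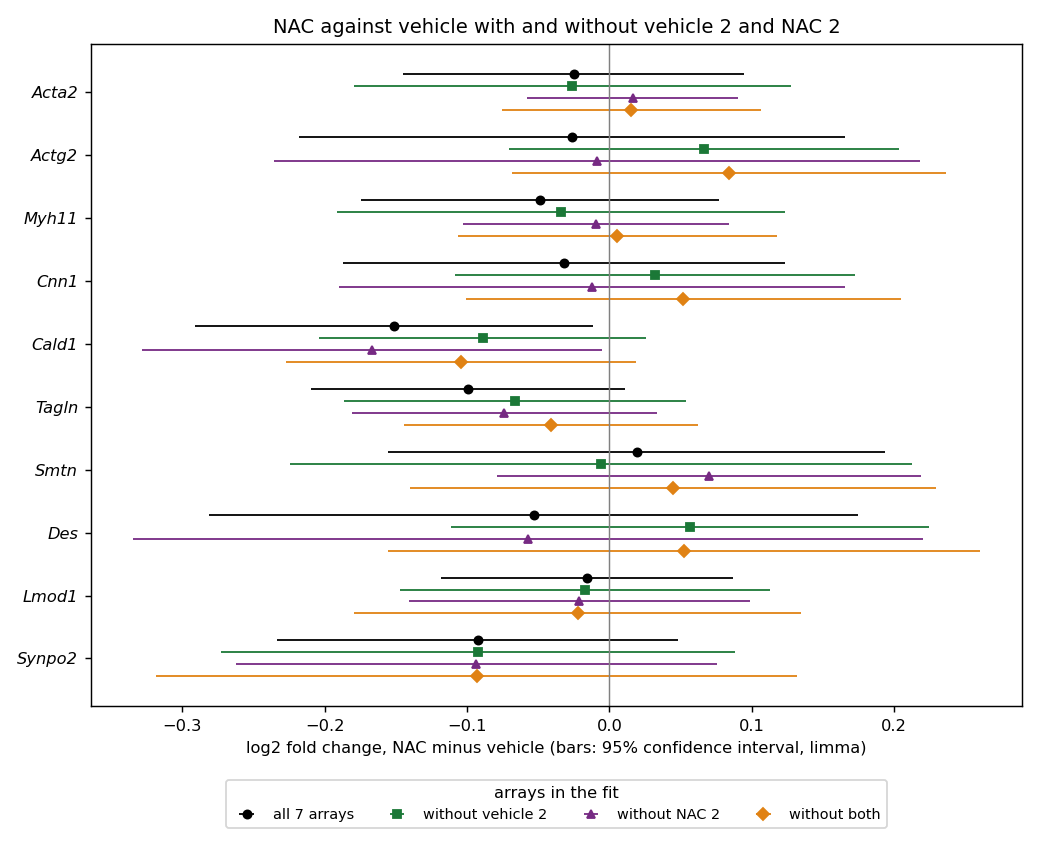
Log2 fold change of NAC against vehicle (x axis, bars giving the 95% confidence interval of limma) for each contractile gene, with all 7 arrays, without vehicle 2, without NAC 2 and without both. *Cald1*, *Tagln*, *Synpo2* and *Lmod1* stay left of 0 in all 4 fits, and only intervals of *Cald1*, with all 7 arrays and without NAC 2, leave out 0.

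The 8 genes with the array pattern most like the mean of the contractile genes included 2 of the partner genes. Likeness was taken as the root mean square difference between a gene's deviations and the mean deviations of the 10 genes over the 7 arrays, among the 13199 other named genes whose range over the arrays was at least that of this mean. *Pgm5*, a phosphoglucomutase relative that binds dystrophin and utrophin at muscle adhesions, was closest at 0.019, and *Flna*, filamin A, which crosslinks actin, had 0.021. *Pgm5* was at 11.12, 11.25 and 11.10 with vehicle and at 11.14, 11.02, 11.12 and 11.14 with NAC, so that vehicle replicate 2 was high and NAC replicate 2 low. The same arrays were the highest and the lowest for all 8 genes, which the choice by likeness favours. The other 6 were the sulfatase *Sulf1* (0.020), *Diras1* (0.021), the neuronal splicing factor *Rbfox3* (0.022), *Dntt* (0.022), *Gatd3a* (0.022) and *Spp2* (0.022). Of these, *Diras1* (6.38 to 6.58), *Dntt* (4.41 to 4.63) and *Spp2* (4.37 to 4.57) read below the median of every array, so their pattern is uncertain. Of the contractile genes themselves, *Tagln* lay closest to their mean at 0.033 and *Des* farthest at 0.099, where a gene with the same value on all arrays would have 0.047. Of the 10 genes 8, all but *Tagln* and *Myh11*, lay farther from the mean than that. The measure picks 8 of 13199 genes over 7 arrays, and it says nothing of shared function.

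A wider list of 46 genes that work with the contractile proteins was written from textbook knowledge, and 42 of them were measured. None passed the test between NAC and vehicle, and 0% of all genes did. The log2 fold change was below 0 in 33 and above 0 in 9, where it was below 0 in 50.2% of all genes. The median was -0.034, against -0.00029 over all genes. Among the 11363 brighter genes, which held 39 of the 42, the median was -0.019 and the share below 0 was not counted. At an unadjusted p under 0.05 there was 1 gene, lower with NAC, where 2.53% of all genes were lower at that level. That gene was *Kcnma1*, the pore of the large-conductance potassium channel that relaxes smooth muscle, at 10.50, 10.40 and 10.49 with vehicle and at 10.01, 10.06, 10.19 and 10.35 with NAC. All 4 NAC arrays lay below all vehicle arrays, as in 2.18% of all genes, at a log2 difference of -0.31 (standard error 0.084, limma adjusted p = 0.827). Its second probe set, at 6.66, 6.12 and 6.27 with vehicle and at 6.01, 6.09, 6.44 and 6.15 with NAC, overlapped between the groups, at a log2 difference of -0.17 (standard error 0.15). That probe set read below the median of every array, so its value is uncertain. Without vehicle replicate 2 and NAC replicate 2, 22 of the 42 genes were below 0, against 50.2% of all genes, with a median of -0.010. These 2 arrays were the highest and the lowest for the mean of the partner genes too, so a rise on average was fixed in advance.

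Among the motor's light chains, tropomyosins and kinase, all 5 fold changes were below 0 with a median of -0.088, where 50.2% of all genes were below 0. *Myl6*, the essential light chain, had -0.14 (standard error 0.083), *Tpm1*, a tropomyosin that lies along actin, -0.088 (standard error 0.053), and *Myl9*, the regulatory light chain, -0.093 (standard error 0.071), each at an adjusted p of 0.827 in limma. The probe set of *Myl6* read 6.75 to 7.09, below the median of every array, so its value is uncertain. Of the myosin phosphatase, *Ppp1r12a*, its targeting subunit, was at 10.40, 10.33 and 10.28 with vehicle and at 10.26, 10.21, 10.29 and 10.15 with NAC, where only NAC replicate 3 was above the lowest vehicle array. Its log2 fold change was -0.11 (standard error 0.046), and *Ppp1cb*, the catalytic subunit, had -0.13 (standard error 0.069). Of 6 measured genes of calcium and potassium handling, 5 were below 0, with a median of -0.025. Besides *Kcnma1*, the calcium channel *Cacna1c* had -0.037 (standard error 0.037) and the calcium pump *Atp2a2* 0.11 (standard error 0.089).

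The anchors were mostly below 0, while the transcriptional regulators were split. Of 15 measured anchors and filament linkers, 11 were below 0 and 4 above, with a median of -0.035, where 50.2% of all genes were below 0. Named here are the 3 of these 15 with the smallest unadjusted p in limma. *Nexn*, an actin-binding protein of the Z disc, had a difference of -0.12 (standard error 0.060), *Pdlim7*, a scaffold on actin, 0.067 (standard error 0.039), and *Mustn1*, a small protein of musculoskeletal tissue, 0.16 (standard error 0.13). *Nexn* read only 6.45 to 6.75, below the median of every array, with 3 arrays at 1 value. *Mustn1* was highest on NAC replicate 3, at 8.16, with at most 7.95 on the other arrays. Of the 8 transcriptional regulators, 4 were below 0 and 4 above, with a median of -0.0018. *Srf*, whose promoter stretch above holds a pair of perfect CArG boxes, was at 9.01, 8.71 and 8.80 with vehicle and at 8.97, 8.81, 8.88 and 8.78 with NAC. Its NAC arrays lay inside the vehicle range, at a log2 difference of 0.021 (standard error 0.081, limma adjusted p = 0.966). *Myocd* was at 7.69, 7.77 and 7.62 with vehicle and at 7.69, 7.52, 7.74 and 7.72 with NAC, with vehicle replicate 2 highest and NAC replicate 2 lowest, as for the mean of the contractile genes, and a log2 difference of -0.026 (standard error 0.066). The coactivators *Mrtfa* and *Mrtfb* had -0.041 (standard error 0.045) and -0.097 (standard error 0.064), and *Klf4*, a factor that opposes the contractile programme, 0.053 (standard error 0.10).

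**Figure D4:**
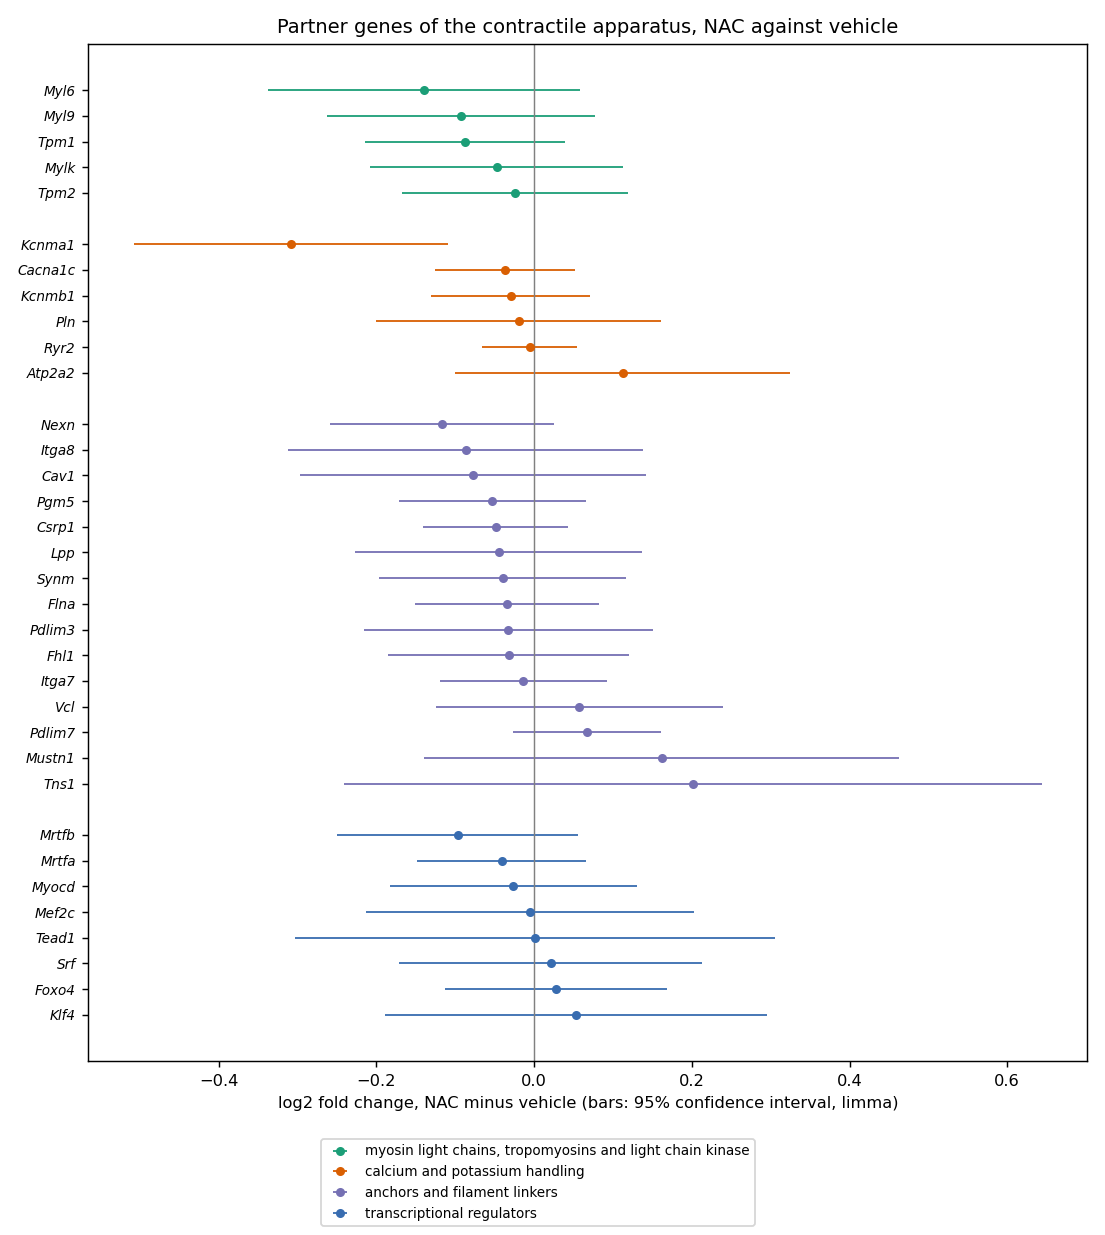
Log2 fold change of NAC against vehicle (x axis, bars giving the 95% confidence interval of limma) for 34 of the 42 measured partner genes, in 4 lists shown by colour. The interval of *Kcnma1* alone leaves out 0, and the transcriptional regulators lie on both sides of 0.

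Skeletal muscle and adipocyte markers stood highest on NAC replicate 3. The 17 skeletal muscle markers averaged 0.66 above their 7-array mean on NAC replicate 3 and between -0.16 and -0.061 on the other arrays. *Acta1*, the skeletal muscle actin and the marker with the highest mean, was at 10.45 to 10.91, where the other 16 markers reached at most 8.76. It was at 10.91 on NAC replicate 3 and at 10.82 on vehicle replicate 1. Its probes, too, may catch RNA of other actins, and *Acta1* weighs most in the summed level. The summed linear level of the 17 was 2823 to 3266 with vehicle and 2837 to 4502 with NAC. The 10 measured adipocyte markers averaged 1.29 on NAC replicate 3, with a summed level of 1152 to 1457 with vehicle and 1266 to 5258 with NAC. That array was the highest for 9 of these 10 markers, but not for *Lipe*, the lipase with the highest mean of the list, at 9.03 there and from 8.79 to 9.38 on the others. On NAC replicate 3 the contractile genes averaged -0.0032, and without it their log2 fold changes ran from -0.13 for *Cald1* to 0.0079 for *Smtn*, with a median of -0.045. Of the 10, 9 were below 0 without that array, as were 50.6% of all genes, and 0 passed limma. The summed level of the 10 contractile genes was 25784 to 28325 with vehicle and 24545 to 26664 with NAC.

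Seminal vesicle secretory genes, which belong to the neighbouring gland, had both their lowest and their highest mean deviation on NAC arrays. Of 8 measured genes all 8 had a log2 fold change below 0, as had 50.2% of all genes, with a median of -0.71. Their summed level was 21966 to 28203 with vehicle and 8321 to 32328 with NAC. In 4 of the 8 all NAC arrays lay below all vehicle arrays, as in 2.18% of all genes, and *Svs5*, the most abundant, was at 12.19 to 13.37. NAC replicate 1 was the lowest array, with a mean deviation of -1.27, and there the contractile genes averaged -0.0075. NAC replicate 4 was the highest, with a mean deviation of 0.68, and there the contractile genes averaged -0.0062. It was the highest array for 3 of the 8 genes, as was vehicle replicate 4, with *Svs2* at 13.53 and *Pate4* at 11.43 on NAC replicate 4, above every vehicle array. The 10 fibroblast and matrix markers had 9 fold changes above 0 with a median of 0.099 and were highest on NAC replicate 3, where they averaged 0.21. The 7 pericyte markers had 5 below 0 and a median of -0.020, with vehicle replicate 2 highest at 0.055. The 9 measured cardiac muscle markers had a median of 0.012, the 8 endothelial markers 0.076, the 8 luminal markers 0.0059, the 5 basal markers 0.084 and the 6 measured nerve and glia markers 0.017. The endothelial markers and those of nerve and glia were also highest on NAC replicate 3, where they averaged 0.23 and 0.22. The basal markers were highest on NAC replicate 1, where they averaged 0.34. The part of these other tissues in the values of the contractile genes was not tested.

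**Figure D5:**
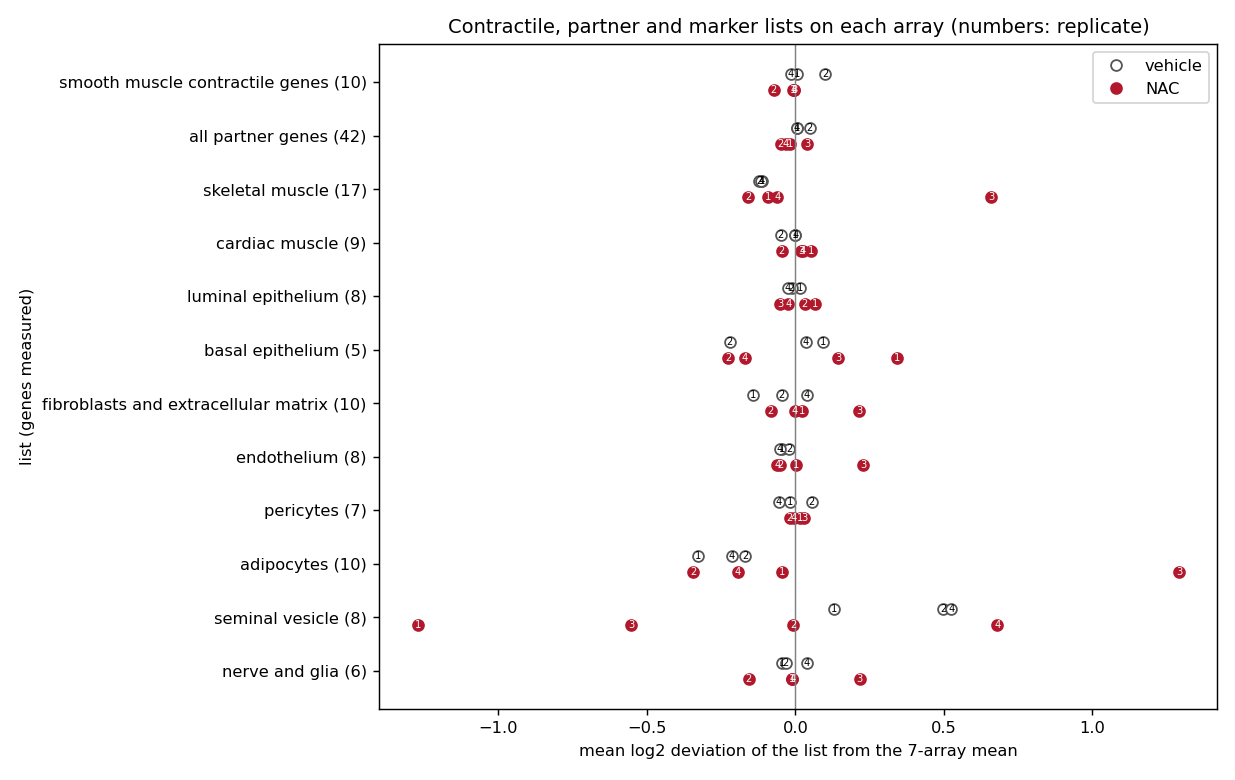
Mean log2 deviation from the 7-array mean (x axis) of each list (y axis, number of genes measured in parentheses) on vehicle (open, n = 3) and NAC arrays (filled, n = 4), with the replicate number in each point. The contractile genes lie between -0.07 and 0.10, while adipocyte markers reach 1.29 and seminal vesicle genes run from -1.27 to 0.68, both on NAC arrays.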

How the data were processed

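Each array, a Mouse Gene 1.0 ST array from Affymetrix, measured RNA of 1 mouse. The deposited values are log2 expression per probe set: the authors corrected background by RMA, normalized the arrays to common quantiles and summarized perfect-match probes by median polish, after leaving out 1 vehicle array at quality control. For software, affy, RMA and limma appear in the submitters' processing notes, and the study's methods give the releases of R and Affy that made the values. Every column of values belongs to a sample (0 do not).

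Of 20696 probe sets, 18950 name 1 gene, 678 several and 1068 none in the annotation used here. Those that name 1 gene were used, with symbols updated through Entrez identifiers (GRCm38.p6) and for a gene with several the brightest on average was kept. The test of NAC against vehicle was the two-sided moderated test of limma 3.58.1 (R 4.3.3), fitted without covariates over all genes, with a Benjamini-Hochberg adjusted p under 0.05 as the threshold, and 95% intervals come from its moderated statistics. The test was also run on simulated data with independent noise and with changes larger than those of the contractile genes. That run does not bear on small changes or on tied values. Signal over background cannot be seen in summarized values.

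The members and lists were chosen with earlier results of these data known. All 10 members were named, up to 3 partner genes per list with the smallest unadjusted p, *Srf*, *Myocd*, *Mrtfa* and *Mrtfb*, the marker of the highest mean in each list described, and the 8 genes of the nearest array pattern. Other genes were named after their values were seen. Values not tested per gene are given as counts and medians. Figures and the promoter search used Python 3.11.15. *Nkx3.1* itself was not analysed here, and 1 of the partner lists is not reported on its own.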

Additional observations from a re-analysis of the deposited data

Results flagged for a closer look

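On a group of 4 NAC arrays, a value was singled out when its gap to the nearest other array, divided by the range of the group, exceeded Dixon's 95% critical value. Chance does so in about 1 of 20 groups, and 5 of the 39 groups examined, which share arrays, did. That share need not hold where arrays are tied at 1 value, as for *Lmod1* and *Cacna1c*.

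*Lmod1* had a gap of 0.970 of the range, since NAC replicates 1, 2 and 3 were all at 7.83 and NAC replicate 4 at 7.77. The mean deviation of the contractile genes had a gap of 0.938, with NAC replicate 2 at -0.073 and the other NAC arrays between -0.0075 and -0.0032. NAC replicate 2 had already been set apart on these same values, so this flag adds no separate support. *Cacna1c* had a gap of 0.980, with NAC replicate 2 at 7.12 and the others all at 7.23, where 4 of the 7 arrays hold 1 value. *Mrtfa* had a gap of 0.908, with NAC replicate 2 at 8.47 and the others from 8.34 to 8.35. The skeletal muscle markers had a gap of 0.881, with NAC replicate 3 at 0.66.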

How the results depend on the processing

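Under 16 alternative settings, 0 of the 10 contractile genes passed limma in any, with a smallest adjusted p of 0.667, and the largest fold change in size was 0.20 (*Cald1* without vehicle replicate 1). *Cald1*, *Tagln* and *Synpo2* kept a fold change below 0 throughout. The number of genes called among all genes was 0, and 0 to 1 with each array left out, where the 1, *Crip1*, no contractile gene, came without NAC replicate 4. The median of the contractile genes, -0.040, was 0.010 without vehicle replicate 2 and NAC replicate 2 together, -0.012 with quantile normalization again, with 8 of 10 below 0, and from -0.074 (without vehicle replicate 1) to -0.017 (without NAC replicate 2) with each array left out. That of the partner genes was from -0.053 (without vehicle replicate 4) to -0.017 (without NAC replicate 2). Without vehicle replicate 2 and NAC replicate 2 together, signs turned for *Acta2* (0.015), *Myh11* (0.0056), *Cnn1* (0.052), *Des* (0.053), *Actg2* (0.084), *Cacna1c* (0.00069), *Srf* (-0.028) and *Myocd* (0.063), and with quantile normalization again for *Lmod1* (0.0040). With each array left out, signs turned within the ranges -0.044 to 0.016 for *Acta2*, -0.086 to 0.032 for *Cnn1*, -0.13 to 0.057 for *Des*, -0.094 to 0.067 for *Actg2*, -0.031 to 0.070 for *Smtn*, -0.054 to 0.023 for *Lmod1*, -0.045 to 0.11 for *Srf*, -0.064 to 0.023 for *Myocd* and -0.041 to 0.12 for *Klf4*. The cause of these changes was not tested.

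With the replicate number as a block, the median of the contractile genes was -0.045, 9 of 10 were below 0 and 0 passed, as did 0 of all genes. NAC replicate 3 has no partner and adds nothing to that fit. Deviations of same-numbered arrays correlated across genes with r of 0.21, 0.29 and -0.067 for replicates 1, 2 and 4. Arrays of different number gave r from -0.27 to 0.21. Genes are not independent, so that the numbers were not taken to pair the mice.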
